A study of Homo sapiens with 183 samples.

Results

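The Krüppel-like factors (KLFs) are transcription factors that bind GC-rich and CACCC-containing DNA through zinc fingers at their C-terminal end, and family members differ mainly in the N-terminal part that contacts coactivators or corepressors. KLF4, KLF5, KLF6 and KLF7 are mostly described as activators, although KLF4 can also repress. KLF3 represses through CtBP, and KLF9, KLF10, KLF11, KLF13 and KLF16 repress through the Sin3A corepressor. KLF5 is best known in the proliferating epithelium of the gastrointestinal tract and in pancreatic cancer. Of this family, 10 genes, KLF3, KLF4, KLF5, KLF6, KLF7, KLF9, KLF10, KLF11, KLF13 and KLF16, were taken by name out of the 19875 gene names in 8 tables of transcripts per 1000000 (TPM), and their mRNA levels were compared between each knockout or inhibitor group and the control of the same cell line and experiment.

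The 183 RNA-seq libraries came from 9 human cancer cell lines. In 5 pancreatic lines that stably expressed Cas9 (AsPC-1, BxPC-3, CFPAC-1, SUIT-2 and T3M-4), single guide RNAs (sgRNAs) delivered in the LRG2.1 vector targeted KLF5 (sgKLF5), and in some lines RUVBL1, RUVBL2, CDK1, RPA3 (sgRpa3), CHD4 or SERPINB5, with sgRosa as the control, and RNA was taken on day 5. RUVBL1 and RUVBL2 form an AAA+ ATPase that CB-6644 inhibits. AsPC-1 and T3M-4 cells carrying an empty vector (EV), RUVBL1_A62T or RUVBL2_dF109 were exposed to CB-6644 or DMSO for 24 h, as were the parental lines T84 (colorectal cancer), A375 (melanoma), H1048 (small cell lung cancer of a tuft cell-like kind) and RH30 (alveolar rhabdomyosarcoma). Knockout groups held 2 to 6 libraries, CB-6644 groups 3 or 4 and DMSO groups 4, except that each vector had 1 DMSO library. The study used more than one sgRNA for a target, and the labels do not say which sgRNA a library received. Infected cells were used as populations. The dose of CB-6644 is stated in the study's supplement and not in the labels.

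Each table sums to 1000000 TPM per library, so sequencing depth is unknown and is not recoverable from these values. Between 11292 and 14024 genes reached 1 TPM per library, and 0 pairs of libraries were identical. The study describes the knockout libraries as independent samples or biological replicates, and where the sources do not say so the p-values measure the spread between libraries, which may be technical. In bulk RNA, fewer cells of a type and less RNA per cell cannot be told apart. The targeted mRNA was lower in 5 of 5 sgRUVBL1 comparisons (log2 differences of -1.87 to -1.14), in 4 of 4 sgRUVBL2 comparisons (-1.76 to -1.24) and after sgSERPINB5 (-1.35). CDK1 mRNA was lower in T3M-4 (-1.47) and BxPC-3 (-0.61), and did not pass the test in AsPC-1 (-0.19) or CFPAC-1 (-0.10). RPA3 mRNA was called lower in 2 of 6 comparisons, and CHD4 mRNA was 0.28 higher, not lower, in the libraries labelled sgCHD4. TPM cannot show whether a protein was lost. RH30 expressed 4 of 4 muscle markers at 1 TPM or more, and EPCAM and CDH1 were under 1 TPM in A375 and RH30. Other lists were not confined to the labelled tissue. T84 expressed 5 of 5 classical pancreatic markers at 1 TPM or more, and T3M-4 and BxPC-3 each 3 of 5. Colorectal markers summed to 721 to 1592 TPM in AsPC-1 and to 1617 to 1737 TPM in T84. RH30 summed to 584 to 604 TPM on the basal-like list, where S100A2 alone reached 1 TPM. TFF1 of the classical pancreatic list was under 1 TPM in AsPC-1 and SUIT-2, TRPM5 of the tuft cell list was under 0.1 TPM in H1048 and PMEL of the melanocyte list was under 1 TPM in A375. Replicate 1 of SUIT-2 sgRosa and replicate 2 of sgKLF5 in the earlier T3M-4 experiment stood apart from their groups. The calls of those comparisons that change without them are given both ways. Differences that stayed without a call also moved, as KLF7 in SUIT-2 did from 0.08 to -0.14 after KLF5 knockout.

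A gene was called higher or lower where limma's moderated test on log2(TPM + 1) gave a Benjamini-Hochberg adjusted p below 0.05 over all genes that averaged at least 1 TPM in the libraries of that fit. Differences are on the log2(TPM + 1) scale, which understates changes of low genes. Knockout groups of an experiment share their sgRosa libraries, and the vector groups of a line share their DMSO libraries, so that comparisons within a table are not independent of each other. Of the 10 genes, 9 passed the filter on low values in 37 or more of the 39 comparisons with a control, and KLF9 passed it in 21.

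KLF13 and KLF4 carry the most regular results after KLF5 knockout, and the 250 bases before their start sites are shown for the KLF-type letters they hold. The start sites and bases are those of RefSeq on GRCh38.p14. Capitals mark the GC box GGGCGG and the letters CACCC on either strand, CCGCCC being the GC box of the other strand.
KLF13, chr15:31326585-31326834, plus strand: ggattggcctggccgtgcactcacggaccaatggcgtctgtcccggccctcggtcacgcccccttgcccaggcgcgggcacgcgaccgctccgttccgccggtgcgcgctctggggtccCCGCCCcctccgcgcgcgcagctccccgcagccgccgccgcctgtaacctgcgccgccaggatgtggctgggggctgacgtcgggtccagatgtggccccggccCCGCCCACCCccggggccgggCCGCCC
KLF4, chr9:107489770-107490019, minus strand: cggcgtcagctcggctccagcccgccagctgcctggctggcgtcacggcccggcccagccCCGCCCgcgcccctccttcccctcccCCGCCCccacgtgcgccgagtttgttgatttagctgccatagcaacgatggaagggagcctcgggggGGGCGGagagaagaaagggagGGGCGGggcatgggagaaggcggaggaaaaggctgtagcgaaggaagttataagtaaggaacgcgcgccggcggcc

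The KLF13 window held 3 GC boxes and 1 CACCC, which overlaps a GC box by 1 base, and the KLF4 window held 4 GC boxes and 0 CACCC. Over 35116 RefSeq promoter windows of this length, 42.6% held GGGCGG and 54.7% held CACCC. A match describes letters only and is not evidence of a site. Promoter windows were searched for 8 of the 10 genes, with 13 windows among them. The KLF16 window held 7 GC boxes, the 2 KLF5 windows held 0 and 2, and the KLF9 window held neither motif. In the hg38 annotation (GENCODE v44), KLF13 (ENSG00000169926.11) lies on chromosome 15 at 31326835 to 31435665 on the plus strand. KLF5 (ENSG00000102554.14) lies on chromosome 13 at 73054976 to 73077541 on the plus strand. KLF4 (ENSG00000136826.15) lies on chromosome 9 at 107484852 to 107490482 on the minus strand. The KLF4 window is upstream of the RefSeq start but lies inside this GENCODE span, so the annotations place the start differently.

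In control libraries, KLF5 was the member with the highest mean in 6 of the 9 lines. Its mean level was 319 ± 30.0 TPM (SD, n = 6) in BxPC-3, 293 ± 57.4 (n = 9) in T3M-4, 228 ± 76.4 (n = 4) in SUIT-2, 192 ± 16.0 (n = 4) in CFPAC-1, 152 ± 12.7 (n = 4) in T84 and 128 ± 19.4 (n = 17) in AsPC-1. The other lines outside the pancreas followed at 75.6 ± 1.32 in A375, 18.7 ± 1.37 in H1048 and 16.7 ± 1.43 in RH30 (n = 4 each). Neighbours in this order did not overlap in 3 places, between CFPAC-1 and T84, AsPC-1 and A375, and A375 and H1048. The tables were normalised separately, so levels set across them are a description only.

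KLF6, an activator also described as a tumour suppressor, averaged 155 ± 49.1 TPM over the 17 AsPC-1 control libraries, a range that overlapped that of KLF5. Its order with KLF5 turned between AsPC-1 experiments, with sgRosa means of 191.5 TPM for KLF6 and 117 TPM for KLF5 in the second and of 111 and 156 TPM in the third. KLF16 led in H1048 at 28.8 TPM and KLF10 in RH30 at 62.1 TPM. KLF13 averaged between 8.41 TPM in A375 and 47.6 TPM in T3M-4, and KLF4 between 8.47 TPM in RH30 and 56.3 TPM in T3M-4. KLF9, which binds the basic transcription element, was at 25.9 TPM in A375 but at or under 5.95 TPM in the other lines, and averaged 0.0974 TPM in AsPC-1. KLF11, a TGF-beta-inducible repressor, ran from 0.155 TPM in RH30 to 23.4 TPM in H1048. AsPC-1 sgRosa levels also moved between experiments. Mean KLF4 was 89.9 TPM in the first experiment and 28.2 TPM in the third, and mean KLF10 was 143 and 50.9 TPM in the same pair. Changes are therefore read within an experiment.

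**Figure D1:**
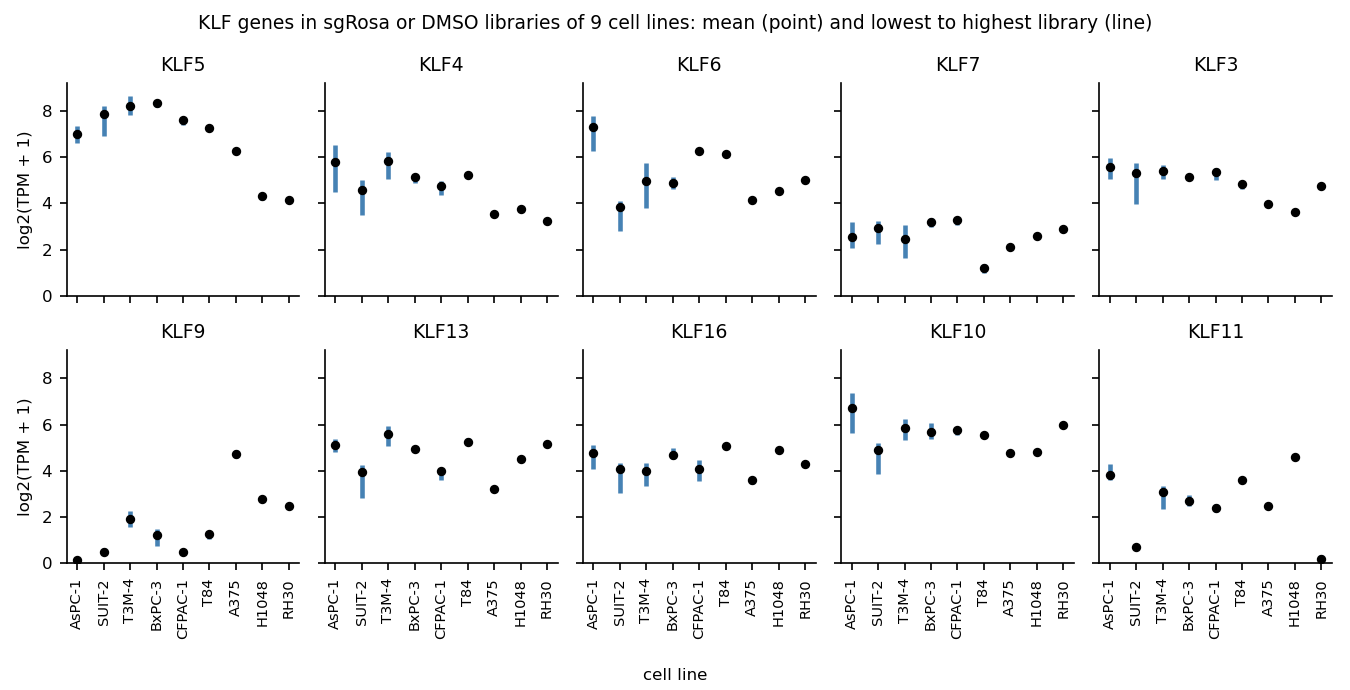
Level of the 10 KLF genes in control libraries (sgRosa or DMSO) of 9 cell lines, as log2(TPM + 1), with points for means and bars for the range over libraries. KLF5 falls from a mean of 319 TPM in BxPC-3 to 16.7 TPM in RH30, and KLF9 is at 25.9 TPM in A375 alone and at or under 5.95 TPM elsewhere.

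Over the 9 lines, genes whose mean control level followed KLF5 most closely on the log2 scale included ITGA6 (Pearson's r = 0.994), PSMB10 (0.988), C19orf33 (0.974) and LOC401478 (0.966). For KLF4 they were TRIM31 (0.957), CDA (0.952), OASL (0.95), KLK10 (0.94) and DDX60 (0.934). These are from the top of 4209 genes compared over 9 points that differ in tissue and table, and are given as a description.

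After KLF5 knockout, KLF13 mRNA was lower in all 8 comparisons with sgRosa and was called in 6 of them. No other member was called in the same direction more than 3 times. KLF13, known for binding the promoter of the chemokine RANTES in T cells, lay between -2.03 and -0.53 of sgRosa on the log2 scale. In the first AsPC-1 experiment it was at 34.4 and 28.2 TPM in the sgRosa libraries and at a lowest of 13.0, a median of 15.2 and a highest of 19.9 TPM in the 6 sgKLF5 libraries. The groups did not overlap, and the difference was -0.96 (SE 0.14, limma adjusted p = 0.000709). In this comparison 25.9% of all genes tested were called.

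In the third AsPC-1 experiment KLF13 was at 40.2, 39.1, 39.1 and 34.4 TPM with sgRosa and at 13.7, 18.8, 21.8 and 16.4 TPM with sgKLF5. All 4 knockout libraries lay below all 4 controls, with a difference of -1.09 (SE 0.11, adjusted p = 2.41e-07) where 27.8% of genes were called. In CFPAC-1, the sgRosa libraries were at 16.1, 11.2, 16.5 and 15.2 TPM and the sgKLF5 libraries at 7.76, 8.72 and 8.65 TPM. Again the groups did not overlap (-0.74, SE 0.15, adjusted p = 0.00624, with 16.2% of genes called).

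The basal-like lines BxPC-3 and T3M-4 were each studied in a pair of experiments. In BxPC-3, KLF13 fell in the earlier experiment from 27.2 and 28.3 TPM to 10.4, 9.10, 6.57 and 7.11 TPM (-1.65, SE 0.18, adjusted p = 0.000145, 16.2% of genes called). In the later one it fell from 30.0, 28.2, 32.7 and 32.9 TPM to 13.9, 15.9, 17.6 and 15.6 TPM (-0.93, SE 0.12, adjusted p = 1.5e-05, 34.6% called). No knockout library reached a control library in either, and the loss was 0.71 smaller in the later experiment (adjusted p = 0.0216 for the difference, which was called for 16.7% of genes, and 0.0747 and 0.0973 without either sgRosa library of the earlier experiment). In T3M-4, the later experiment had 50.8, 55.2, 60.9 and 32.5 TPM with sgRosa against 26.2, 27.6, 29.9 and 26.7 TPM with sgKLF5 (-0.80, SE 0.14, adjusted p = 0.000322, 34.6% called). The lowest sgRosa library came close to the knockout group without overlapping it.

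KLF13 was not called in the earlier T3M-4 experiment or in SUIT-2. In T3M-4 it was at 50.0 and 51.5 TPM with sgRosa and at 14.4, 2.84, 19.7 and 19.9 TPM with sgKLF5, which gave -2.03 (95% interval -3.57 to -0.49, adjusted p = 0.121) with 5.72% of genes called. The library at 2.84 TPM is the one that stood apart. Without it the difference was -1.46 (adjusted p = 0.00147) and 37.0% of genes were called. In SUIT-2 the sgRosa libraries were at 6.0, 16.6, 16.5 and 18.1 TPM and the sgKLF5 libraries at 9.44, 7.06, 9.36 and 9.80 TPM. The difference was -0.53 (95% interval -1.26 to 0.20, adjusted p = 0.47) with 3.94% of genes called. Without the sgRosa library at 6.0 TPM, the knockout libraries lay below all controls and the difference was -0.87 (adjusted p = 0.00797, 9.82% of genes called).

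**Figure D2:**
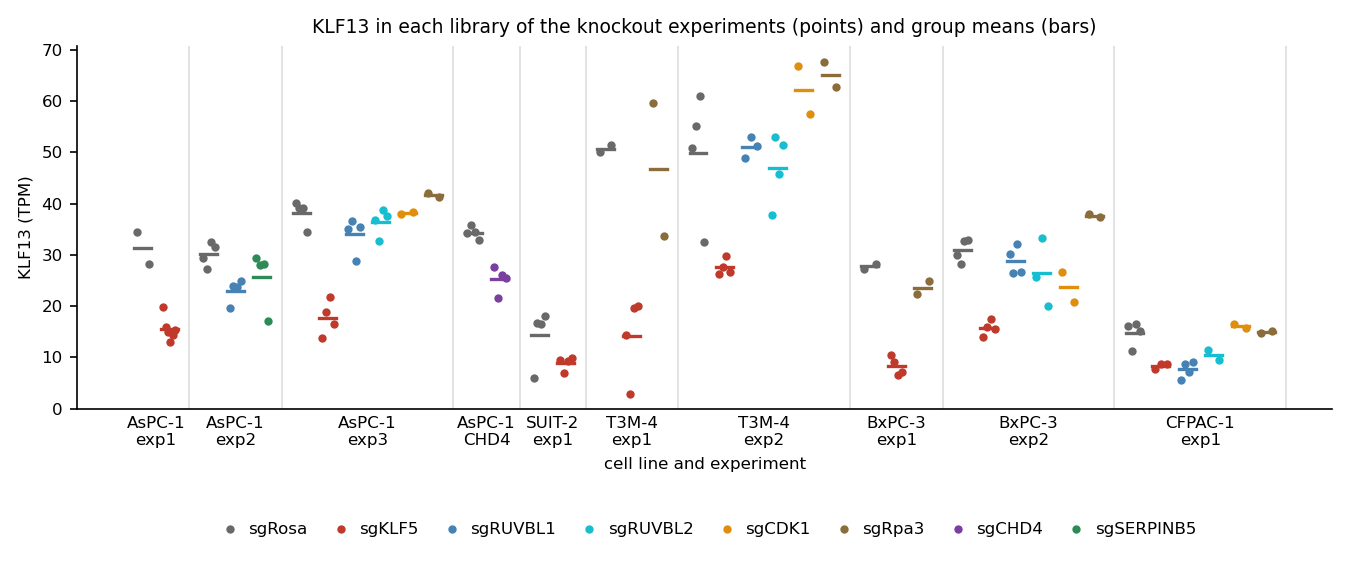
KLF13 level in TPM in each library of the knockout experiments, by cell line and experiment, with bars for group means. The sgKLF5 libraries lie below all sgRosa libraries in 7 of 8 comparisons, the exception being SUIT-2, where 1 sgRosa library is at 6.0 TPM.

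After knockout of 2 genes needed for division, KLF13 was not called. CDK1 is the mitotic kinase and RPA3 a subunit of the single-strand DNA binding protein RPA. Limma called KLF13 in 0 of the 10 sgCDK1 and sgRpa3 comparisons (log2 differences of -0.38 to 0.42). Few genes were called there at all, from 0% to 24.6% of those tested and 9.73% on average. Set against the mean of sgCDK1 and sgRpa3 in the same experiment, KLF13 was lower with sgKLF5 by 1.15 in AsPC-1 (adjusted p = 1.04e-07), 1.18 in T3M-4 (6.34e-06), 0.89 in BxPC-3 (1.39e-05) and 0.82 in CFPAC-1 (0.000469). These comparisons called 34.7%, 28.4%, 46.8% and 43.7% of all genes in the same order of lines. In AsPC-1, where CDK1 mRNA was not called lower, the 2 sgCDK1 libraries held 38.0 and 38.4 TPM of KLF13. The 2 sgRpa3 libraries held 42.1 and 41.2 TPM, and all of these lay within or above the sgRosa range. In BxPC-3, where CDK1 mRNA was lower, KLF13 was at 20.8 and 26.7 TPM with sgCDK1, below the 28.2 to 32.9 TPM of sgRosa. With sgRpa3 it was above that range, at 37.3 and 37.9 TPM, so the mean of these groups combines opposite shifts. In T3M-4, where CDK1 mRNA was also lower, sgCDK1 libraries held 57.4 and 66.9 TPM against 32.5 to 60.9 TPM.

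RUVBL1 and RUVBL2 knockout did not change KLF13 in the same way as KLF5 knockout in 3 of 4 lines. KLF13 was higher with sgRUVBL1 than with sgKLF5 by 0.92 in AsPC-1 (adjusted p = 9.93e-07), 0.84 in BxPC-3 (3.11e-05) and 0.87 in T3M-4 (0.000227), and with sgRUVBL2 by 1.02 (3.86e-07), 0.69 (0.000589) and 0.74 (0.000543). In the third AsPC-1 experiment it was at 35.5, 35.0, 36.7 and 28.8 TPM with sgRUVBL1 and at 36.8, 32.6, 38.7 and 37.5 TPM with sgRUVBL2, both overlapping sgRosa. In CFPAC-1, by contrast, KLF13 was at 5.64, 8.71, 7.12 and 9.18 TPM with sgRUVBL1, below all sgRosa libraries (-0.87, adjusted p = 0.000243), and its difference from sgKLF5 was -0.13 (95% interval -0.45 to 0.18). It was also lower with sgRUVBL1 in the second AsPC-1 experiment, where 29.3, 27.3, 32.6 and 31.5 TPM in sgRosa compared with 19.7, 23.9, 23.8 and 24.9 TPM (-0.38, adjusted p = 0.0276), a call lost without sgRosa replicate 3, sgRosa replicate 4 or sgRUVBL1 replicate 1 (adjusted p of 0.0645 to 0.0894). The remaining sgRUVBL1 and sgRUVBL2 comparisons of KLF13 with sgRosa lay between -0.45 and 0.07 and none was called.

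KLF4, an epithelial factor also known from reprogramming to pluripotency, lay above sgRosa in 8 of 8 sgKLF5 comparisons (0.10 to 0.82) and was called in 3. In the third AsPC-1 experiment KLF4 was at 24.6, 27.3, 29.7 and 31.1 TPM with sgRosa and at 44.4, 57.9, 57.9 and 42.7 TPM with sgKLF5 (0.82, adjusted p = 3.53e-06). In the first it was at 90.5 and 89.2 TPM with sgRosa and at a lowest of 124, a median of 142 and a highest of 162 TPM in 6 sgKLF5 libraries (0.65, adjusted p = 0.000359). No libraries overlapped in either. In the later T3M-4 experiment the sgKLF5 libraries held 71.3, 73.7, 68.2 and 66.7 TPM against 54.8, 56.8, 65.8 and 42.3 TPM (0.36, adjusted p = 0.011). KLF4 also lay above sgRosa in 6 of 6 sgRpa3 comparisons (0.05 to 0.45, and in 5 of 6 after rescaling), of which limma called 0. Only in AsPC-1 was KLF4 higher with sgKLF5 than with the mean of sgCDK1 and sgRpa3 (0.58, adjusted p = 0.000162), and in the other 3 lines that difference was between -0.16 and 0.27 and was not called.

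KLF5 mRNA itself did not mark the knockout. Its sgKLF5 differences ran from -0.41 to 0.78 and were above 0 in 4 of 8 comparisons (5 of 8 after rescaling to the median gene). Without the libraries that stood apart, KLF5 went from -0.05 to 0.49 (adjusted p = 0.0681) in the earlier T3M-4 experiment, and from -0.30 to -0.59 in SUIT-2, where it was then called lower (adjusted p = 0.0355). In the later T3M-4 experiment KLF5 rose from 329, 339, 399.8 and 262 TPM in sgRosa to 533, 542, 604 and 582 TPM in sgKLF5 (0.78, adjusted p = 1.73e-05), while in CFPAC-1 it fell from 206, 193, 199 and 169 TPM to 132, 139 and 162 TPM (-0.41, adjusted p = 0.00852). Both pairs of groups were without overlap. The first AsPC-1 experiment also gave higher KLF5 (0.53, adjusted p = 0.0462), a call lost on leaving out any of 6 of its 8 libraries (0.39 to 0.67, adjusted p up to 0.345). The CFPAC-1 call of KLF5 was lost without sgKLF5 replicate 1 (adjusted p = 0.0526). In the earlier T3M-4 experiment the library that stood apart had 92.1 TPM of KLF5 against 334, 482 and 465 TPM in its group.

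**Figure D3:**
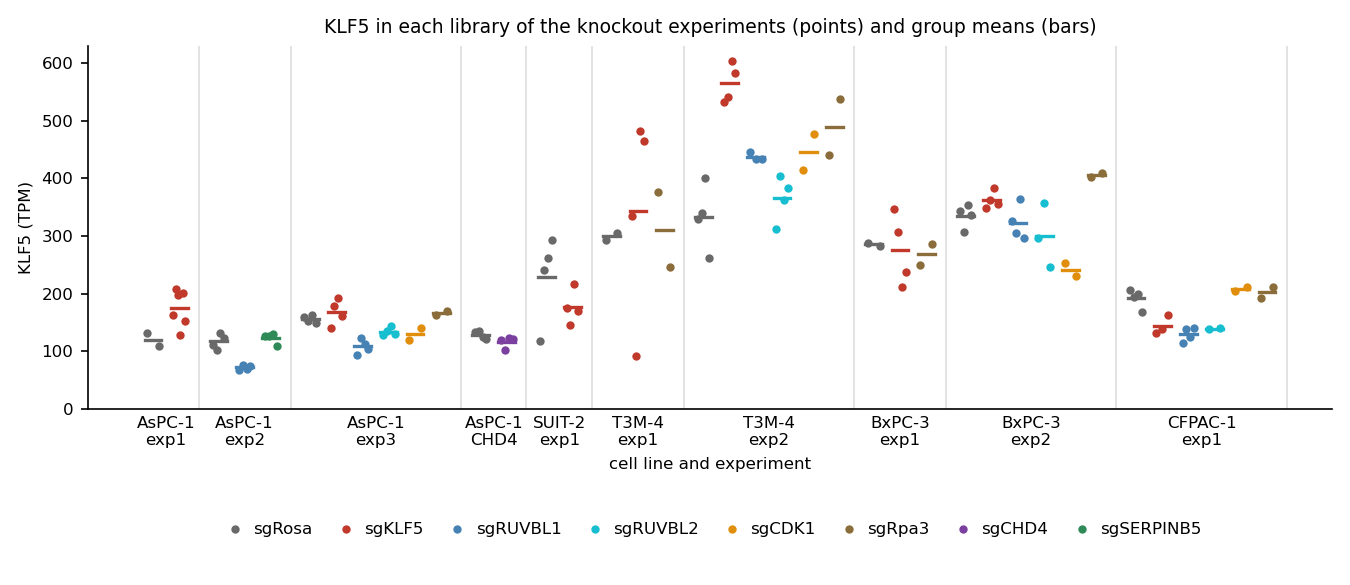
KLF5 level in TPM in each library of the knockout experiments, by cell line and experiment, with bars for group means. In T3M-4 the later sgKLF5 libraries hold 533 to 604 TPM against 262 to 399.8 TPM in sgRosa, whereas in CFPAC-1 they hold 132 to 162 TPM against 169 to 206 TPM.

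KLF6 was higher after KLF5 knockout in SUIT-2, where 6.07, 16.3, 16.3 and 15.2 TPM in sgRosa compared with 48.3, 40.1, 35.5 and 34.4 TPM in sgKLF5 (1.56, adjusted p = 0.0213). The groups did not overlap, and without the sgRosa library at 6.07 TPM the difference in KLF6 was 1.25 (adjusted p = 0.00172). Leaving out sgKLF5 replicate 1, 2 or 3 gave 1.47 to 1.61 with adjusted p of 0.0609 to 0.0983. KLF6 was also called higher in the later experiments in T3M-4 (0.31, adjusted p = 0.0342) and BxPC-3 (0.41, adjusted p = 0.0206), calls that 4 and 3 of the 19 libraries of those fits decided (adjusted p up to 0.11 and 0.0652 without them), and its other 5 differences, -0.90 to 0.38, were not called. The lowest of these, in the earlier T3M-4 experiment, was -0.48 without the library that stood apart.

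KLF3, the CtBP-binding repressor, lay below sgRosa in 7 of 8 sgKLF5 comparisons and was called in the third AsPC-1 experiment (-0.28, adjusted p = 0.0357) and in CFPAC-1 (-0.54, adjusted p = 0.00945). The first of these calls was lost on leaving out any 1 of 5 libraries (adjusted p up to 0.148) and the second without sgKLF5 replicate 1 (0.0544). In CFPAC-1, KLF3 was at 45.7, 31.7, 43.9 and 38.7 TPM in sgRosa, at 24.4, 28.1 and 28.5 TPM in sgKLF5, and at 49.3 and 48.0 TPM in sgCDK1. It was lower with sgKLF5 than with the mean of sgCDK1 and sgRpa3 in 3 of 4 lines, by 0.39 in AsPC-1, 0.64 in T3M-4 and 0.87 in CFPAC-1 (adjusted p = 0.00415, 0.000478 and 4.96e-05). KLF11 lay below sgRosa in 7 of 7 sgKLF5 comparisons (-0.93 to -0.20, the lowest being -0.60 without the library that stood apart) without a single call, and was called lower against the mean of sgCDK1 and sgRpa3 in all 4 lines (-0.40 to -0.29, adjusted p from 0.0168 to 0.0359), each call being lost on leaving out some single library (adjusted p up to 0.13). KLF9, at under 2 TPM in BxPC-3 sgRosa, was lower with sgKLF5 in the later BxPC-3 (-0.43) and T3M-4 (-0.30) experiments and higher with sgRpa3 in both (0.70 and 0.49), each call resting on single libraries (adjusted p up to 0.209 without one). KLF10, an early TGF-beta response gene, fell in the third AsPC-1 experiment (-0.38, adjusted p = 0.00162) and rose in the later BxPC-3 experiment (0.26, adjusted p = 0.00673). KLF7, known from the nervous system, was called higher in the later T3M-4 experiment (0.45, adjusted p = 0.0284, and up to 0.0933 without 1 of 5 libraries). Its differences in the T3M-4 experiments were 1.67 apart (adjusted p = 0.00261), in a comparison that called 17.4% of genes. KLF16 was not called after KLF5 knockout (-0.29 to 0.52, the highest, in SUIT-2, being 0.19 without the library that stood apart).

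Counted over the members, 22 calls followed KLF5 knockout in 8 comparisons, of which 10 were higher and 12 lower. The split was 2 higher and 1 lower of 9 in the first AsPC-1 experiment, 1 and 3 of 9 in the third, 4 and 2 of 10 in the later T3M-4 experiment, 0 and 1 of 10 and then 2 and 2 of 10 in BxPC-3, 0 and 3 of 9 in CFPAC-1, and 1 and 0 of 8 in SUIT-2. In the earlier T3M-4 experiment limma called 0 of 10, where 3206 of the 12636 genes had an unadjusted p under 0.05. That count rested on the library that stood apart. Without it, KLF3 (-0.83), KLF7 (-1.001), KLF10 (-0.60) and KLF13 were called lower and KLF4 (0.59) higher, adjusted p from 0.00147 to 0.0245, where 37.0% of genes were called. These shares are of the order of the genome-wide percentages above. The median member stood at -0.22 in the third AsPC-1 experiment against 0.02 for the median gene, at -0.91 against -0.22 in the earlier T3M-4 experiment with all libraries, and closer to the median gene in the other 6. TPM are shares of a library, so the libraries were also rescaled to a common median of gene-wise ratios, which moved the median of all genes by between -0.40 and 0.24 over the comparisons. After rescaling, the AsPC-1 splits became 2 and 3 and then 1 and 4, T3M-4 0 and 2 and then 3 and 4, and BxPC-3 0 and 3 in the earlier experiment. In that order, 50.3%, 50%, 47.3%, 44.5% and 49.2% of all called genes were then higher. The share of all genes called after rescaling is not reported here, so rescaled splits are set beside the direction of the called genes only. Between the 2 AsPC-1 experiments limma called 0 of 9 members as different, and 4.28% of genes (1730 of 12150 at an unadjusted p under 0.05).

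RUVBL1 knockout gave 26 member calls in 5 comparisons, mostly higher in one line and mostly lower in others, although the difference between lines was not tested. In T3M-4, 8 of 10 members were higher and 0 lower, where 60.5% of all genes were called, 45.9% higher and 14.6% lower. The median member rose 0.47 there against 0.25 for the median gene. In the second AsPC-1 experiment and in CFPAC-1, 6 of 9 were lower and 0 higher, with 55.8% and 43.8% of genes called and median members at -0.38 and -0.56 against 0.02 and -0.20. Of all genes, 25.8% were called lower and 30% higher in that AsPC-1 experiment, and 37.3% and 6.54% in CFPAC-1. The third AsPC-1 experiment gave 2 higher and 3 lower of 9 (51.9% of genes), and BxPC-3 1 higher of 10 (16.0%). After rescaling to the median gene, these splits became 6 and 0 in T3M-4, 0 and 7 and then 1 and 4 in AsPC-1, and 0 and 3 in CFPAC-1. In that order, 47%, 47.6%, 47% and 53.1% of all called genes were then higher.

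The largest sgRUVBL1 gain was that of KLF6 in T3M-4, from 24.6, 26.2, 23.2 and 17.3 TPM to 43.1, 50.9 and 43.4 TPM (0.99, adjusted p = 2.44e-06). Every knockout library exceeded every control. KLF6 rose in BxPC-3 too (0.51, adjusted p = 0.0134, and 0.0504 or 0.0538 without 1 of 2 libraries) and fell in both AsPC-1 experiments (-0.57 and -0.21). KLF3 went from 43.3, 43.8, 48.0 and 32.1 TPM to 64.1, 69.7 and 64.1 TPM in T3M-4 (0.66, adjusted p = 0.000321). In the second AsPC-1 experiment KLF3 went the other way, from 40.9, 38.2, 50.2 and 47.2 TPM to 25.8, 27.1, 24.1 and 26.3 TPM (-0.74, adjusted p = 4.9e-06). Both changes were free of overlap. KLF7 rose in T3M-4 (0.80) and fell in CFPAC-1 (-0.56, with adjusted p = 0.0576 without sgRUVBL1 replicate 1), and KLF4 rose in T3M-4 (0.47) and fell in the second AsPC-1 experiment (-0.46) and in CFPAC-1 (-0.58).

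KLF5 mRNA was lower with sgRUVBL1 in AsPC-1 and CFPAC-1. In AsPC-1 it fell from 110.4, 102, 132 and 123 TPM to 67.3, 76.1, 68.8 and 74.8 TPM in the second experiment (-0.69, adjusted p = 2.82e-06). In the third, sgRosa held 159.6, 152, 162 and 148 TPM of KLF5 and sgRUVBL1 104, 93.9, 123 and 112 TPM (-0.53, adjusted p = 8.54e-05). In CFPAC-1 it fell from 206, 193, 199 and 169 TPM to 115, 139, 125 and 140.4 TPM (-0.56, adjusted p = 0.000135). No group overlapped its control. T3M-4 KLF5 was called higher at 433, 446 and 433 TPM (0.41, adjusted p = 0.00534), but this call was lost after rescaling to the median gene, which left 0.12. In BxPC-3 the difference was -0.06 and was not called.

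RUVBL2 knockout gave 10 member calls in 4 comparisons. In T3M-4, 5 of 10 were higher (54.5% of genes called), in AsPC-1 3 of 9 (43.2%), in CFPAC-1 2 of 9 were lower (12.1%), and in BxPC-3 limma called 0 of 10 (9.76% of genes, 3380 of 12380 at an unadjusted p under 0.05). KLF6 led in T3M-4 (0.71, adjusted p = 3.78e-05) and KLF10 in AsPC-1 (0.67, adjusted p = 8.87e-06), and in CFPAC-1 KLF5 (-0.46) and KLF16 (-0.67) fell, calls lost without 1 of 2 and of 5 libraries (adjusted p up to 0.0884 and 0.158). After rescaling the splits were 2 higher and 1 lower in T3M-4, 2 and 3 in AsPC-1, 0 and 1 in CFPAC-1 and 1 and 1 in BxPC-3. In that order, 46.7%, 46.3%, 46.7% and 54.1% of all called genes were then higher.

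KLF10 rose after knockout of either ATPase subunit in the third AsPC-1 experiment. It was at 50.8, 49.0, 54.2 and 49.5 TPM with sgRosa, at 94.9, 85.2, 77.3 and 70.3 TPM with sgRUVBL1 (0.67, adjusted p = 3.59e-06) and at 76.6, 81.1, 81.0 and 88.1 TPM with sgRUVBL2. All 8 libraries lay above the controls. The same experiment had 92.3 and 91.2 TPM of KLF10 with sgRpa3 (0.84, adjusted p = 0.000111). With sgKLF5, KLF10 was at 35.6, 42.4, 41.9 and 35.9 TPM, below all controls. In the second AsPC-1 experiment KLF10 was -0.24 with sgRUVBL1 and was not called, and the experiments differed by 0.90 (adjusted p = 6.75e-05, in a comparison that called 18.2% of genes).

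Compared directly in the same experiment, sgRUVBL1 and sgRUVBL2 libraries differed from sgKLF5 libraries in 38 member tests of the 8 comparisons. With sgRUVBL1 they were 5 of 9 members in AsPC-1, 7 of 10 in T3M-4, 2 of 10 in BxPC-3 and 2 of 9 in CFPAC-1, where 58.5%, 45.8%, 44.0% and 30.9% of genes were called. With sgRUVBL2 they were 7, 7, 5 and 3, where 52.1%, 39.7%, 40.0% and 15.6% were called. KLF13 and KLF11 were higher and KLF5 and KLF4 lower than with sgKLF5 in AsPC-1 for both subunits. KLF11 was higher by 0.59 and 0.67, and KLF4 lower by 0.64 and 0.56 (adjusted p at most 0.000151).

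The knockouts of CDK1 and RPA3 gave 8 member calls in 10 comparisons. KLF6 was lower with sgCDK1 in AsPC-1 (-0.68, adjusted p = 6.63e-05, 16.7% of genes called), and KLF5 and KLF6 were higher in T3M-4 (0.43 and 0.41, 16.8%). KLF5 was lower in BxPC-3 (-0.47, 5.82%). With sgRpa3, KLF10 was higher in AsPC-1 (0.84, 0.654% of genes called), KLF5 (0.57) and KLF9 in T3M-4 (24.6%) and KLF9 in BxPC-3 (20.8%). Except for KLF6 and KLF10 in AsPC-1, these calls were lost on leaving out at least 1 library, with adjusted p of up to 0.234. After rescaling, sgCDK1 gave 0 calls in T3M-4, 1 lower in AsPC-1, and 1 higher and 3 lower in BxPC-3. Rescaled sgRpa3 gave 1 higher in AsPC-1, 1 higher and 2 lower in T3M-4, and 2 higher in BxPC-3. In that order, 41.3%, 55.9%, 66.1%, 96.1%, 40.9% and 44.6% of all called genes were then higher. Limma called 0 members in CFPAC-1 for sgCDK1 (0% of genes, 1477 of 12748 at an unadjusted p under 0.05) and sgRpa3 (11.6%, 3501 genes). It also called 0 in the earlier T3M-4 (0%, 189 of 12636) and BxPC-3 (0.307%, 1024 of 12398) sgRpa3 comparisons. The CFPAC-1 sgCDK1 comparison includes libraries in which CDK1 mRNA was not lower.

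Against this mean of sgCDK1 and sgRpa3, sgKLF5 differed for 20 member tests, 1 higher and 5 lower of 9 in AsPC-1, 4 lower of 10 in T3M-4, 1 higher and 3 lower of 10 in BxPC-3, and 6 lower of 9 in CFPAC-1, where 34.7%, 28.4%, 46.8% and 43.7% of all genes were called. After rescaling the splits were 1 and 5, 3 and 4, 3 and 3, and 0 and 4, and 48.9%, 52.8%, 50.7% and 54.7% of all called genes were then higher. After sgCHD4, in the AsPC-1 experiment where CHD4 mRNA was not lower, KLF11 (0.46) and KLF10 (0.22) were higher and KLF13 (-0.44, adjusted p = 0.000557) and KLF6 (-0.21, with adjusted p up to 0.089 without 1 of 4 libraries) lower, with 50.0% of genes called. KLF13 went from 34.2, 35.9, 34.4 and 32.9 TPM in sgRosa to 27.6, 21.6, 26.1 and 25.5 TPM in sgCHD4, without overlap. SERPINB5 knockout called 0 of 9 members by limma and 0.0343% of genes (802 of 11645 at an unadjusted p under 0.05). The member differences there lay between -0.32 and 0.09.

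**Figure D4:**
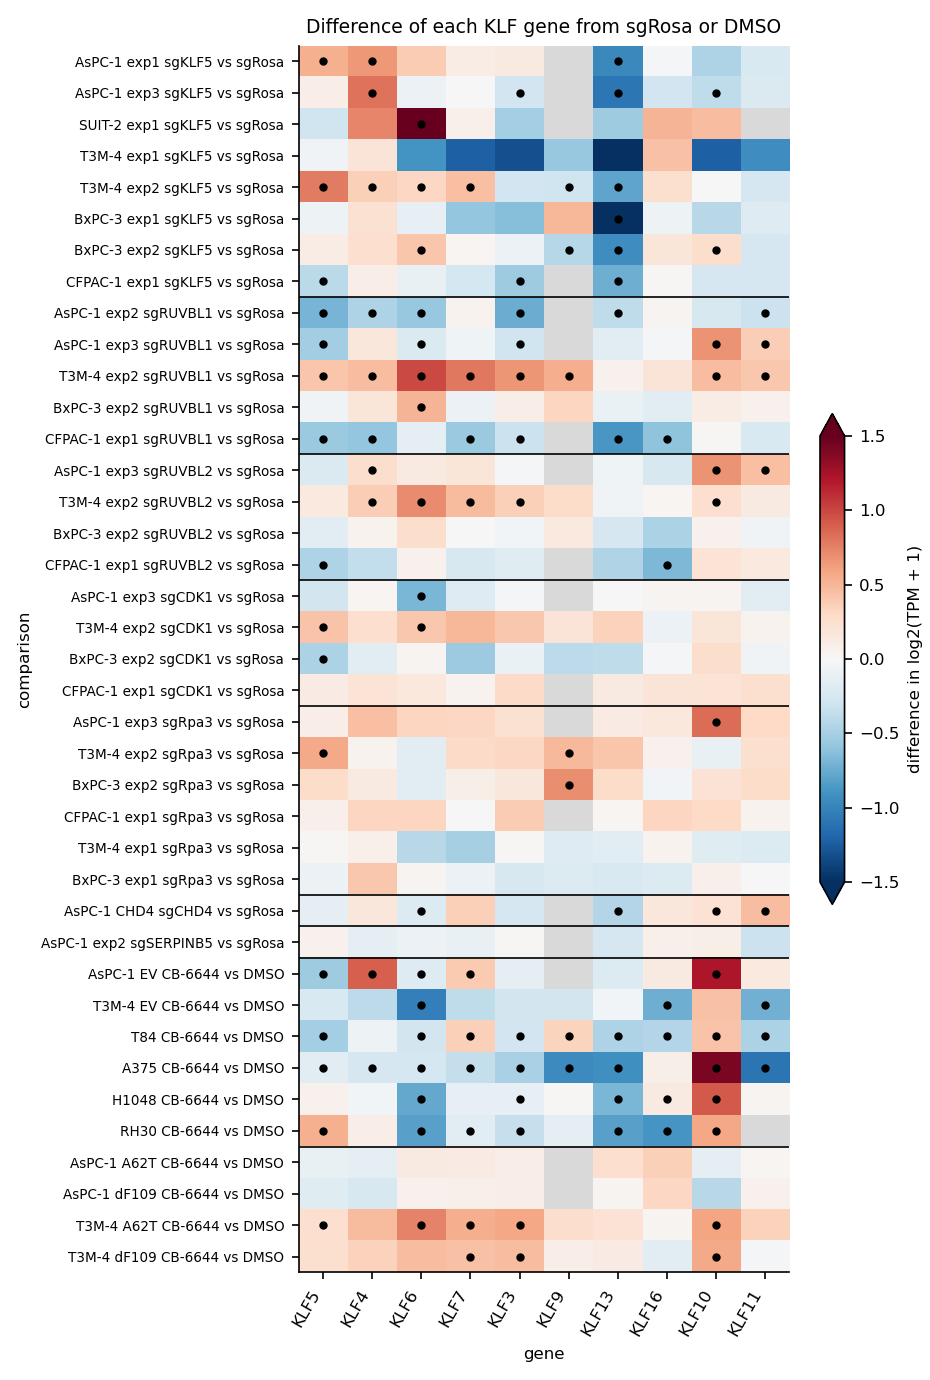
Differences in log2(TPM + 1) of the 10 KLF genes in 39 comparisons of a knockout or CB-6644 group with its control, with colours capped at 1.5 either way, dots for an adjusted p below 0.05 and grey for genes not tested. KLF13 has 13 dots, all lower, and KLF10 has 14 higher and 1 lower.

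With CB-6644, KLF10 rose and KLF13 and KLF6 fell in all 4 lines outside the pancreas, and KLF3 fell with them. KLF10 was at 25.8, 26.4, 26.1 and 27.7 TPM in A375 with DMSO and at 73.3, 74.1, 69.8 and 72.0 TPM with CB-6644 (1.42, adjusted p = 3.53e-11). In H1048, KLF10 rose from 28.3, 25.9, 27.7 and 25.9 TPM to 50.1, 50.3, 54.8 and 52.0 TPM (0.92, adjusted p = 3.8e-09). No treated library overlapped a control. The gain was smaller in RH30, from 63.2, 59.0, 64.8 and 61.5 TPM to 96.7, 91.9, 90.8 and 93.7 TPM (0.58, adjusted p = 1.02e-08). In T84, 42.8, 49.9, 45.2 and 47.6 TPM of KLF10 compared with 65.6, 59.9, 65.2 and 59.9 TPM (0.43, adjusted p = 5.22e-06). The response of KLF10 differed among the lines, spanning 0.99 between the highest and the lowest (limma F test, adjusted p = 2.91e-14), in a test that called 86.2% of genes and all 10 members.

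KLF13 fell with CB-6644 from 8.25, 8.46, 8.42 and 8.49 TPM to 4.39, 3.70, 4.06 and 3.82 TPM in A375 (-0.92, adjusted p = 5.04e-08). In RH30 it went from 35.0, 36.7, 34.6 and 32.8 TPM to 20.5, 19.9, 18.7 and 18.5 TPM (-0.81, adjusted p = 6.71e-09). The groups were apart in each. In H1048, 22.2, 22.2, 20.2 and 22.1 TPM became 12.8, 13.3, 14.1 and 12.3 TPM (-0.68, adjusted p = 2.09e-07), and in T84, 34.8, 41.4, 35.4 and 36.6 TPM became 27.5, 27.4, 26.6 and 25.0 TPM (-0.46, adjusted p = 6.55e-06). These lines were not part of the knockout experiments, and KLF13 was lower in every treated library of all 4.

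KLF6 fell most in RH30, from 30.9, 31.3, 32.01 and 30.3 TPM to 17.5, 16.8, 17.2 and 17.3 TPM (-0.82, adjusted p = 7.91e-10), and in H1048, from 22.1, 22.1, 22.3 and 22.9 TPM to 12.1, 12.0, 14.0 and 12.9 TPM (-0.76, adjusted p = 6.83e-08). Its change in T84 and A375 was smaller (-0.27 and -0.26). KLF3 fell in all 4, by 0.49 in A375, 0.34 in RH30, 0.29 in T84 and 0.13 in H1048, the last a call lost without 1 of 5 libraries (adjusted p up to 0.11).

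KLF5 moved in different directions. It fell in T84 from 139.9, 165, 142 and 159.5 TPM to 106, 111, 108 and 102 TPM (-0.50, adjusted p = 6.76e-07) and rose in RH30 from 16.5, 14.9, 18.4 and 16.9 TPM to 25.4, 24.6, 25.6 and 22.9 TPM (0.54, adjusted p = 3.31e-06). Neither pair overlapped. In A375 KLF5 fell by 0.16 (adjusted p = 0.000179), and in H1048 the difference was 0.06 and was not called. KLF9, at its highest level in A375, fell there from 22.6 to 29.1 TPM to 11.5 to 13.5 TPM (-0.96, adjusted p = 5.8e-07) and was higher in T84 (0.33). KLF11 fell in A375, from 4.97, 4.54, 4.43 and 4.75 TPM to 1.39, 2.11, 1.92 and 1.302 TPM (-1.09, adjusted p = 1.32e-06), and in T84 (-0.47), and was not tested in RH30. KLF16, also known as a basic transcription element-binding protein, fell in RH30 from 18.0, 19.6, 17.4 and 18.7 TPM to 9.14, 10.2, 8.81 and 9.89 TPM (-0.89, adjusted p = 1.82e-08) and in T84 (-0.44). KLF7 was higher in T84 (0.36) and lower in A375 (-0.35) and RH30 (-0.16, adjusted p up to 0.089 without 1 of 4 libraries), and KLF4 was lower in A375 alone (-0.25).

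Counted, A375 had 1 member higher and 8 lower of 10 with 81.1% of all genes called, T84 3 and 6 of 10 with 71.4%, RH30 2 and 5 of 9 with 77.7%, and H1048 2 and 3 of 10 with 77.9%. The members' medians were -0.31, -0.28, -0.16 and -0.01 where the medians over all genes were 0.16, 0.13, 0.13 and 0.18. Rescaling to the median gene changed the splits to 1 and 8, 2 and 7, 2 and 6, and 1 and 7. Among all called genes, rescaling lowered the share called higher from 63.4% to 45.5% in A375 and from 69.2% to 46.9% in H1048. KLF16 in H1048, called 0.14 higher as deposited (a call lost without 1 of 4 libraries, adjusted p up to 0.0805), was at -0.07 after rescaling.

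**Figure D5:**
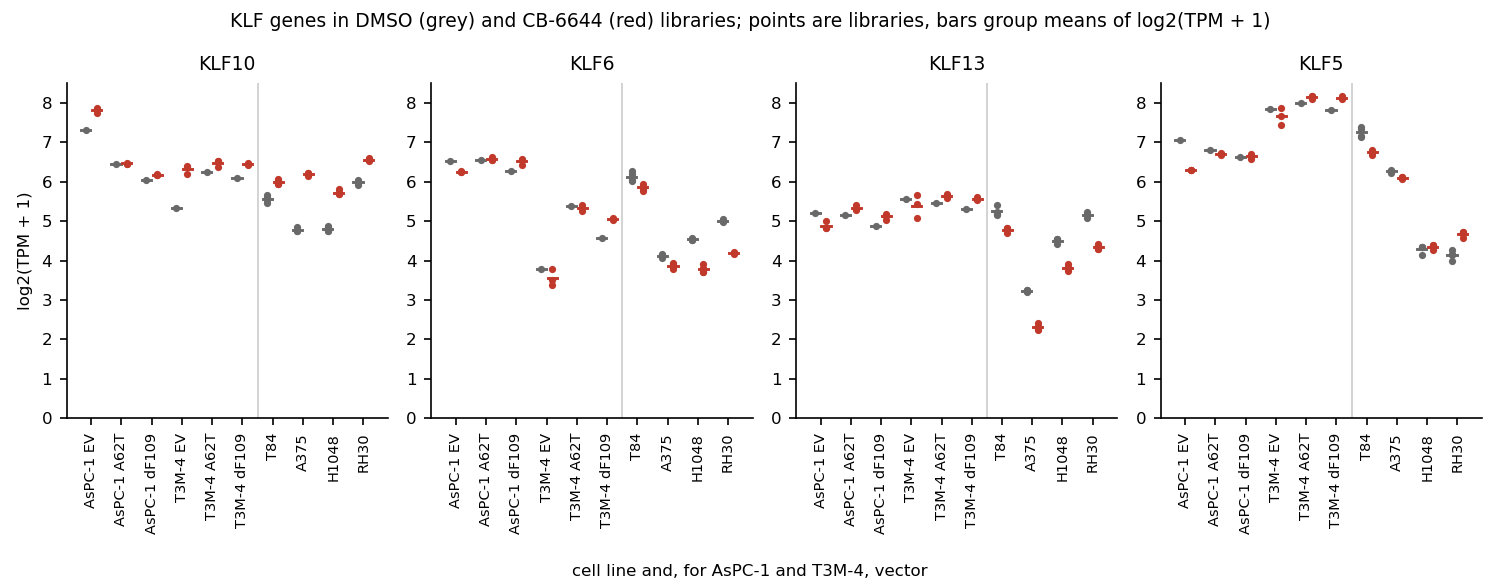
KLF10, KLF6, KLF13 and KLF5 as log2(TPM + 1) in each DMSO (grey) and CB-6644 (red) library of the 10 line and vector combinations. KLF10 is above DMSO in every treated library of the 4 parental lines and KLF13 below it, and each vector group has 1 DMSO library.

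In the pancreatic lines, EV, RUVBL1_A62T and RUVBL2_dF109 cells had 1 DMSO library each, which were pooled within a line as the control. AsPC-1 EV cells had 3 members higher and 2 lower of 9 with CB-6644 (64.4% of genes called), and T3M-4 EV cells had 3 lower and 0 higher of 10 (34.3%). After rescaling the splits were 2 and 4, and 0 and 8, and 41.2% and 39.6% of all called genes were then higher. KLF10 was at 156 TPM in the AsPC-1 EV DMSO library and at 231, 227 and 215 TPM with CB-6644, above all 3 DMSO libraries (1.22, adjusted p = 0.00035). The DMSO libraries of the RUVBL1_A62T and RUVBL2_dF109 cells held only 86.8 and 64.5 TPM of KLF10, and against the EV DMSO library alone the gain was 0.52 (adjusted p = 3.33e-05). In T3M-4 EV cells KLF10 went from 38.9 TPM to 83.1, 81.8 and 72.4 TPM. This was 1.00 against the EV DMSO library (adjusted p = 0.000169) but 0.44 and not called against the pooled DMSO libraries (adjusted p = 0.0824), since those of the other vectors held 74.5 and 66.8 TPM.

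In AsPC-1 the variant cells held KLF10 closer to their own DMSO level than EV cells did. RUVBL1_A62T cells were at 86.8 TPM with DMSO and at 86.6, 88.3 and 86.6 TPM with CB-6644. RUVBL2_dF109 cells were at 64.5 TPM and at 71.5, 71.6 and 70.9 TPM, which was 0.14 above their own DMSO library. In CB-6644, KLF10 was lower than in EV cells by 1.35 (adjusted p = 0.000268) and 1.64 (adjusted p = 7.69e-05), and the DMSO libraries stood in the same order. In T3M-4 the variants differed from EV in CB-6644 by 0.15 and 0.13 and neither was called. With 1 DMSO library per vector, the DMSO level of a vector has no spread of its own, and the tests take it from the other groups.

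KLF5 fell in AsPC-1 EV cells from 131 TPM to 77.1, 77.5 and 77.0 TPM (-0.53 against the pooled DMSO libraries, adjusted p = 0.000144, and -0.76 against the EV library, adjusted p = 6.14e-06). It was at 110.3 TPM and then 106, 102 and 102 TPM in RUVBL1_A62T cells and at 97.0 TPM and then 103, 99.5 and 94.1 TPM in RUVBL2_dF109 cells. In CB-6644, KLF5 was 0.42 (adjusted p = 0.00128) and 0.35 (adjusted p = 0.00417) higher in the variant cells than in EV cells. KLF13 lay higher in the variants as well (0.45 and 0.24, adjusted p = 0.00102 and 0.0374, the latter up to 0.121 without 1 of 5 libraries). It was at 27.2, 27.1 and 31.1 TPM in treated EV cells from 36.0 TPM in their DMSO library (-0.33 against it, adjusted p = 0.0146), and -0.21 against the pooled DMSO libraries, which was not called. KLF4, at 47.6 TPM in the EV DMSO library and 27.6 and 21.4 TPM in those of the variants, was called 0.89 higher in EV cells against the pool and was 0.27 (adjusted p = 0.0688) against the EV library alone.

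In T3M-4 EV cells the members called lower were KLF6 (-1.02, adjusted p = 0.0185, and up to 0.0572 without 1 of 2 libraries), KLF16 (-0.73) and KLF11 (-0.72). KLF6 was at 12.8 TPM in the EV DMSO library and at 12.8, 10.4 and 9.41 TPM with CB-6644, so that its difference from that library was -0.23 (adjusted p = 0.236), whereas the RUVBL1_A62T DMSO library held 40.9 TPM. KLF11 and KLF16 were at -0.41 and -0.34 against the EV library and were not called. For KLF6 in DMSO, the vector and the single library cannot be told apart. KLF13 stood at -0.04 in T3M-4 EV cells (adjusted p = 0.817, 95% interval -0.32 to 0.23).

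In variant cells against the pooled DMSO libraries, limma called 0 of 9 members in AsPC-1 for RUVBL1_A62T (12.7% of genes, 3963 of 12257 at an unadjusted p under 0.05) and for RUVBL2_dF109 (33.4%, 5605 genes). In T3M-4 it called 5 and 3 of 10 higher (50.0% and 37.6%). Rescaling left 0 and 0 in T3M-4 RUVBL1_A62T cells, 0 and 2 lower in RUVBL2_dF109 cells, and 0 and 1 and then 0 and 3 lower in AsPC-1, as the share of called genes that were higher went from 90.8% to 35.6% in T3M-4 RUVBL1_A62T cells. Against their own DMSO libraries, 0.0408% of genes were called in AsPC-1 RUVBL1_A62T cells and 1.22% in T3M-4 RUVBL1_A62T cells, against 43.8% and 39.3% in RUVBL2_dF109 cells.

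Between variant and EV cells in CB-6644, 8 of 10 members were higher and 0 lower in T3M-4 for each variant, where 50.6% (RUVBL1_A62T) and 34.6% (RUVBL2_dF109) of genes were called and the median members were 0.81 and 0.63 against 0.27 and 0.24 over all genes. KLF6 had the largest difference, 1.77 and 1.48. The single DMSO libraries of KLF6 stood in the same order, at 12.8 TPM in EV, 40.9 TPM in RUVBL1_A62T and 22.7 TPM in RUVBL2_dF109 cells, as did those of KLF4 (32.4, 57.7 and 50.9 TPM) and KLF3 (33.2, 49.3 and 35.7 TPM). In AsPC-1, 3 higher and 2 lower (51.1% of genes) and 3 and 3 (47.2%) of 9 were called. Rescaling gave 7 and 5 higher in T3M-4 and 5 and 2, and 5 and 3 in AsPC-1. Of all called genes, 52.5% and 54.8% were then higher in T3M-4 and 57.8% and 56.3% in AsPC-1.

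The rest of the family and its partners were read from lists. Of the other KLF genes, 21 gene-comparison pairs passed the filter after KLF5 knockout, with 1 called higher and 5 lower (28.6% called, against 21.1% of all genes over the same comparisons), and 11 after RUVBL1 knockout, with 0 and 4 (36.4% against 40.1%). KLF2, an activator known from endothelium and picked here after its values were seen, was called lower in 9 of 39 comparisons with a control and higher in 0, where on average 10.9% of all genes were called lower and 19.9% higher. Of the related SP genes, which bind the same GC boxes, 41 pairs were tested after KLF5 knockout with 3 higher and 8 lower (26.8% against 21.2% of all genes), and 26 after RUVBL1 knockout with 7 and 7 (53.8% against 46.5%). SP6, known from tooth and skin epithelium, was called higher 17 times and lower 2 times of 32, with differences of -0.72 to 2.38, where 20.4% of all genes were called higher and 9.68% lower. SP1, the ubiquitous member, was called lower 11 times and higher 6 times of 39 (43.6% called, against 30.8% of all genes). Among cofactors and regulators of KLF proteins, such as CTBP2 and the Sin3 subunits, 88 pairs after KLF5 knockout gave 7 higher and 6 lower (14.8% against 20.6%). SIN3B was called higher in 13 of 39 comparisons and lower in 1, and CTBP2 higher in 11 and lower in 3. Each was called in 35.9% of them, near the 30.8% of all genes. After CB-6644 in the lines outside the pancreas, 14 pairs of other KLF genes gave 3 higher and 5 lower, 22 of SP genes 8 and 9, and 44 of cofactors 18 and 14. These are 57.1%, 77.3% and 72.7% of the pairs, where 77.9%, 76.8% and 77.1% of all genes were called, so the counts show nothing particular to the lists.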

How the data were processed

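Poly(A)-selected RNA was sequenced in 183 libraries, and the authors quantified transcripts with kallisto against hg38 and deposited gene-level TPM in 8 tables, with no counts. TPM are shares of a library, so that a change in a few abundant genes moves all others, and sequencing depth is unknown. From these values log2(TPM + 1) was fitted with limma 3.58.1 in R 4.3.3 (lmFit, contrasts and eBayes with a trend), 1 fit for each line and experiment with all its groups. Genes averaging 1 TPM or more in a fit were tested, and p-values were Benjamini-Hochberg adjusted over all of them (threshold 0.05). In all, 60 comparisons were made. DMSO libraries of the vectors of a line were pooled, and the 4 parental lines were also fitted together for an F test of whether responses differ.

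The 10 genes and the lists of other KLF genes, SP genes, cofactors and markers were chosen with earlier results of these data known. All 10 members are described, and a gene of the other lists is named where it was called in at least 1 in 4 of the comparisons that tested it. KLF5 and KLF4 were also correlated over line means with every gene averaging 10 TPM or more, naming those of the top 5, of which 1 is not reported here. Alternatives were another pseudocount, no filter or a stricter one, median-of-ratios scaling, robust variance estimates, a fit of the compared groups alone, a replicate block, DMSO of the same vector alone and leaving out each library in turn. Replicate numbers did not mark pairs of libraries. Promoter letters were read from RefSeq windows on GRCh38.p14 and gene positions from GENCODE v44. The authors left out 1 T3M-4 RUVBL1 knockout sample for a low library concentration. The script was tested on simulated data.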

Additional observations from a re-analysis of the deposited data

Results flagged for a closer look

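Among the 284 gene and group pairs of 4 to 10 libraries, 18 held a library far from the others (chance gives about 1 in 20). In SUIT-2 the sgRosa replicate 1 library was low for KLF13 (6.0 TPM), KLF6 (6.072), KLF10 (13.4) and KLF16 (7.16), and sgKLF5 replicate 2 was low for KLF13 (7.06). In the earlier T3M-4 experiment sgKLF5 replicate 2 had 6.19 TPM of KLF10. In AsPC-1, sgSERPINB5 replicate 4 had 143 TPM of KLF6 and 17.1 TPM of KLF13, sgCHD4 replicate 2 had 102 TPM of KLF5 and 111 TPM of KLF10, and sgRosa replicate 1 of the CHD4 experiment had 21.5 TPM of KLF16. KLF7 stood apart in BxPC-3 sgKLF5 replicate 1 (5.86 TPM) and CFPAC-1 sgRosa replicate 4 (7.33). The small spread of the parental lines marked KLF3 in RH30 DMSO replicate 3 (27.0 TPM), KLF5 (16.6) and KLF13 (20.2) in H1048 DMSO replicates 1 and 3, KLF11 in H1048 CB-6644 replicate 3 (22.4) and KLF11 in T84 DMSO replicate 1 (10.3).

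The sgKLF5 difference changed between experiments of a line for some members, as later minus earlier by limma. In T3M-4 these were KLF6 (1.21, adjusted p = 0.0458) and KLF7 (1.67, adjusted p = 0.00261). In BxPC-3 they were KLF9 (-0.92, adjusted p = 0.00431), KLF10 (0.68, adjusted p = 0.00192) and KLF13 (0.71, adjusted p = 0.0216). KLF9 was near the filter in BxPC-3, at 0.70 and 1.02 TPM in the 2 earlier sgRosa libraries. Its difference was -0.80 without replicate 2 of them. The KLF6 value lost its call on leaving out any of 22 of 27 libraries (adjusted p up to 0.175). The sgRUVBL1 difference in AsPC-1 changed for KLF3 (0.44, adjusted p = 0.0252), KLF4 (0.64, adjusted p = 0.00268), KLF6 (0.35, adjusted p = 0.0468), KLF10 (0.90, adjusted p = 6.75e-05) and KLF11 (0.69, adjusted p = 0.000501). There the KLF6 call was lost on leaving out any 1 of 18 of the 32 libraries (adjusted p up to 0.116) and the KLF3 call any 1 of 5 (up to 0.0748).

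Responses to CB-6644 differed among A375, H1048, RH30 and T84 for all 10 members, in a test that called 86.2% of genes. From the lowest to the highest line the log2 difference spanned 0.36 for KLF3, 0.35 for KLF4, 1.04 for KLF5, 0.55 for KLF6, 0.71 for KLF7, 1.29 for KLF9, 0.99 for KLF10, 1.13 for KLF11, 0.46 for KLF13 and 1.03 for KLF16 (limma F test, adjusted p at most 0.0013).

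Some knockouts put every library on one side of sgRosa in one line and on the other side in another, and these differences were not tested. How many of all genes did the same was not counted, so the list is not particular to the members. After sgKLF5, KLF10 was at -0.38 in AsPC-1 and 0.26 in BxPC-3, and KLF5 at 0.78 in T3M-4 and -0.41 in CFPAC-1. After sgRUVBL1, T3M-4 was above sgRosa for KLF3 (0.66), KLF4 (0.47), KLF5 (0.41), KLF6 (0.99), KLF7 (0.80) and KLF11 (0.40). In AsPC-1, KLF3 was below it at -0.74 and -0.30 in its 2 experiments, KLF5 at -0.69 and -0.53 and KLF6 at -0.57 and -0.21. KLF4 (-0.46) and KLF11 (-0.33) were below it in the second experiment only. In the third AsPC-1 experiment every KLF11 library lay above sgRosa (0.37) and KLF4 overlapped it, and KLF7 overlapped sgRosa in both. In CFPAC-1, KLF4 (-0.58), KLF5 (-0.56) and KLF7 (-0.56) were below it, and in BxPC-3 KLF6 (0.51) was above it. With sgRUVBL1, 45.9% of all genes were called higher and 14.6% lower in T3M-4, and 6.54% and 37.3% in CFPAC-1. The shares were 30% and 25.8% in the second AsPC-1 experiment, 36.6% and 15.2% in the third, and 8.29% and 7.67% in BxPC-3.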

How the results depend on the processing

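Of 211 member calls, 133 kept their call under every alternative run and 67 lost it on leaving out some single library, among them 13 of 29 of KLF6, 8 of 14 of KLF7 and 6 of 12 of KLF16. KLF13 kept 23 of 26 and KLF10 21 of 27. The 6 calls of lower KLF13 after KLF5 knockout were kept throughout. Fitting only the compared groups changed the number of member calls after RUVBL2 knockout from 10 to 6, after CB-6644 in EV cells from 8 to 4 and in variant cells from 8 to 2. Median-of-ratios scaling changed them from 4 to 8 after CHD4 knockout and from 8 to 14 in EV cells. Testing without a filter gave 5 in variant cells. The causes of these changes were not tested.

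Leaving out 1 library in turn gave 19 to 27 calls after KLF5 knockout (22), 24 to 27 after RUVBL1 (26), 7 to 13 after RUVBL2 (10), 6 to 12 after CDK1 or RPA3 (8), 3 to 6 after CHD4 (4), 0 after SERPINB5, 7 to 10 in EV cells, 24 to 30 for variant against EV cells, 28 to 31 in the parental lines, 34 to 39 for RUVBL against KLF5 knockout, 18 to 23 for KLF5 against CDK1 and RPA3 knockout, 8 to 13 between experiments and 10 in the F test. In variant cells it gave 2 without the T3M-4 EV DMSO library and 14 without the T3M-4 RUVBL1_A62T DMSO library.

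Signs turned under scaling for KLF13 in AsPC-1 RUVBL2_dF109 cells (-0.16), KLF5 in T3M-4 RUVBL1_A62T cells (-0.13) and KLF5 (-0.14), KLF11 (-0.17) and KLF16 (-0.068) in H1048. Against DMSO of the same vector alone, KLF10 in AsPC-1 RUVBL2_dF109 cells was at 0.14 and KLF6 in T3M-4 RUVBL1_A62T cells at -0.058. Against sgRpa3 alone, a comparator chosen after seeing the data, KLF6 in AsPC-1 was at -0.41 with sgKLF5.

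Replicate numbers did not pair libraries, with a median correlation of deviations of 0.012 for the same number against -0.008 for other numbers and 0 of 35 group pairs over 0.1 throughout. With a replicate block the calls were 30 after KLF5, 26 after RUVBL1, 12 after RUVBL2, 7 after CDK1 or RPA3, 3 after CHD4, 0 after SERPINB5 and 29 in the parental lines. In the earlier T3M-4 experiment it called 7 of 10 members and 4391 of 12636 genes, where the fit without it called 0 members and 723 genes. No block was possible against the DMSO libraries of the vectors. Leaving out both libraries that stood apart, chosen after seeing the data, gave 29 calls after KLF5 knockout.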

Other observations

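Among relatives of the 10 genes, SP4, an SP factor expressed widely in neurons, was called higher in 11 of 39 comparisons with a control and lower in 0, with differences from -1.19 to 1.11. SP8 was tested in 17 and called higher in 1 and lower in 4, where 37.7% of all genes were called. SP5 passed the filter in 2 comparisons and was called lower in both, and SP9 in 1, called higher. In those comparisons 74.6% and 77.7% of all genes were called. KLF14 passed it in 2 comparisons and was called higher in both (0.61 and 1.03), where 79.4% of all genes were called and 51% were higher. KLF8 passed it in 8, with 1 call higher and 2 lower, where 22.7% were called. Among the cofactors, the acetyltransferase KAT2B was called higher in 9 comparisons and lower in 3, and the deacetylases HDAC1 and HDAC2 had 7 and 5 calls higher and 5 and 6 lower. Over the 39 comparisons, on average 19.9% of all genes were called higher and 10.9% lower.

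After RUVBL2 knockout the other KLF genes gave 0 calls higher and 1 lower of 10 pairs, the SP genes 5 and 2 of 21, and the cofactors 4 and 5 of 44 (10%, 33.3% and 20.5% called, against 27%, 32.5% and 29.9% of all genes over the same comparisons). After CDK1 or RPA3 knockout the counts were 2 and 0 of 27, 4 and 1 of 52, and 7 and 2 of 110 (7.41%, 9.62% and 8.18%, against 10.1%, 10.3% and 9.73%). In EV cells with CB-6644 they were 1 and 1 of 4, 5 and 0 of 12, and 6 and 2 of 22 (50%, 41.7% and 36.4%, against 49.4%).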
